A study of Mus musculus with 6 samples.

Results

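The heat shock protein (Hsp) and DnaJ genes of mouse cortex were followed from 6 to 16 months of age. All protein-coding genes whose symbol starts with Hsp or Dnaj were taken, which gave 74 of the 38355 genes in the count tables. This rule by name also takes Hspg2, Hspbap1 and Hspb11, which are not chaperones and were kept among the 74. Of these, 11 were treated as heat-inducible, since a heat shock raises them in most mouse cells, and the other 63 as constitutive. The RNA came from whole cortical hemispheres of C57BL/6 mice, an inbred wild-type strain, with 3 brains at 6 months and 3 brains at 16 months, and the labels name no transgene or treatment for either age. The text on housing states 3 months for the younger mice, but the titles of the samples and the study's methods state 6 months, which is used here. Each hemisphere holds neurons, glia and vessels together, so that in such bulk tissue fewer cells of a type and less RNA per cell cannot be told apart.

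Hsp70 proteins bind unfolded stretches of other proteins and release them in a cycle driven by ATP. DnaJ proteins (also called Hsp40) bring clients to Hsp70 and start this cycle, Hsp110 proteins and BAG proteins exchange its nucleotide, and Hsp90 takes over late folding steps of kinases and steroid receptors. Each compartment has its own set, with Hspa8 in the cytosol, Hspa5 (BiP) and Hsp90b1 (Grp94) in the endoplasmic reticulum (ER) and Hspa9 in mitochondria. Heat-inducible members are raised by heat shock factor 1 (HSF1) through the heat shock element, whereas the ER members are raised by the unfolded protein response through another element. In neurons, chaperones also serve the synapse, where Dnajc5 guards proteins of the synaptic vesicle and Dnajc6 helps to remove clathrin coats.

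Between 29797253 and 46519280 counts fell on genes in a sample, and the members took between 0.779% and 0.795% of them at 6 months and between 0.798% and 0.861% at 16 months. Levels are given as counts per 1000000 after normalization (CPM), and in each list of 6 values replicates 1 to 3 of 6 months come before replicates 1 to 3 of 16 months. Markers of excitatory neurons, inhibitory neurons, astrocytes and oligodendrocytes were read in every sample. Their summed levels were 5565 to 6637, 974 to 1054, 6689 to 7832 and 7354 to 7523 CPM, in this order. These levels do not set cortex, the label of the tissue, apart from other brain regions. Markers of striatum were read in every sample as well, with summed levels from 792 to 909 CPM.

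Of the 74 members, 67 had enough counts to be tested and 3 were called, all with higher transcript levels at 16 months: Hspa5, its DnaJ partner Dnajb11 and the heat-inducible Hspa1b. A gene was called when the P-value of edgeR's quasi-likelihood test, adjusted over all 17120 tested genes, was below 0.05. Among all tested genes 1.67% were called, 0.783% with higher and 0.888% with lower levels at 16 months. At an unadjusted P below 0.05, 12 members were higher and 3 were lower, where the shares over all tested genes were 8.57% and 8.88% (17.4% in both directions). In 18 of the 67 tested members all 3 samples of 16 months lay above all 3 samples of 6 months, and in 2 of them (Dnajc8 and Hspb3) all lay below, while among all tested genes 12.2% lay apart upward and 11.5% downward.

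The changes were small, with a median absolute log2 fold change of 0.08 over the tested members and 0.10 over all tested genes. The median signed log2 fold change was 0.11 for the 11 heat-inducible members, 0.00032 for the 56 tested constitutive members and 0.0014 for all tested genes. The value of the heat-inducible members was 0.03 without replicate 2 of 16 months, 0.06 without replicate 1 of 6 months, 0.06 without members that share over 20% of their transcript, and 0.33 with a narrow list of 6 genes. Of the heat-inducible members 1 was called, 5 had an unadjusted P below 0.05 and 5 lay apart, all of them upward, and 6 of 11 had a positive and 5 a negative fold change. Of the 56 constitutive members 2 were called, both higher, and 29 had a positive and 27 a negative fold change.

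**Figure D1:**
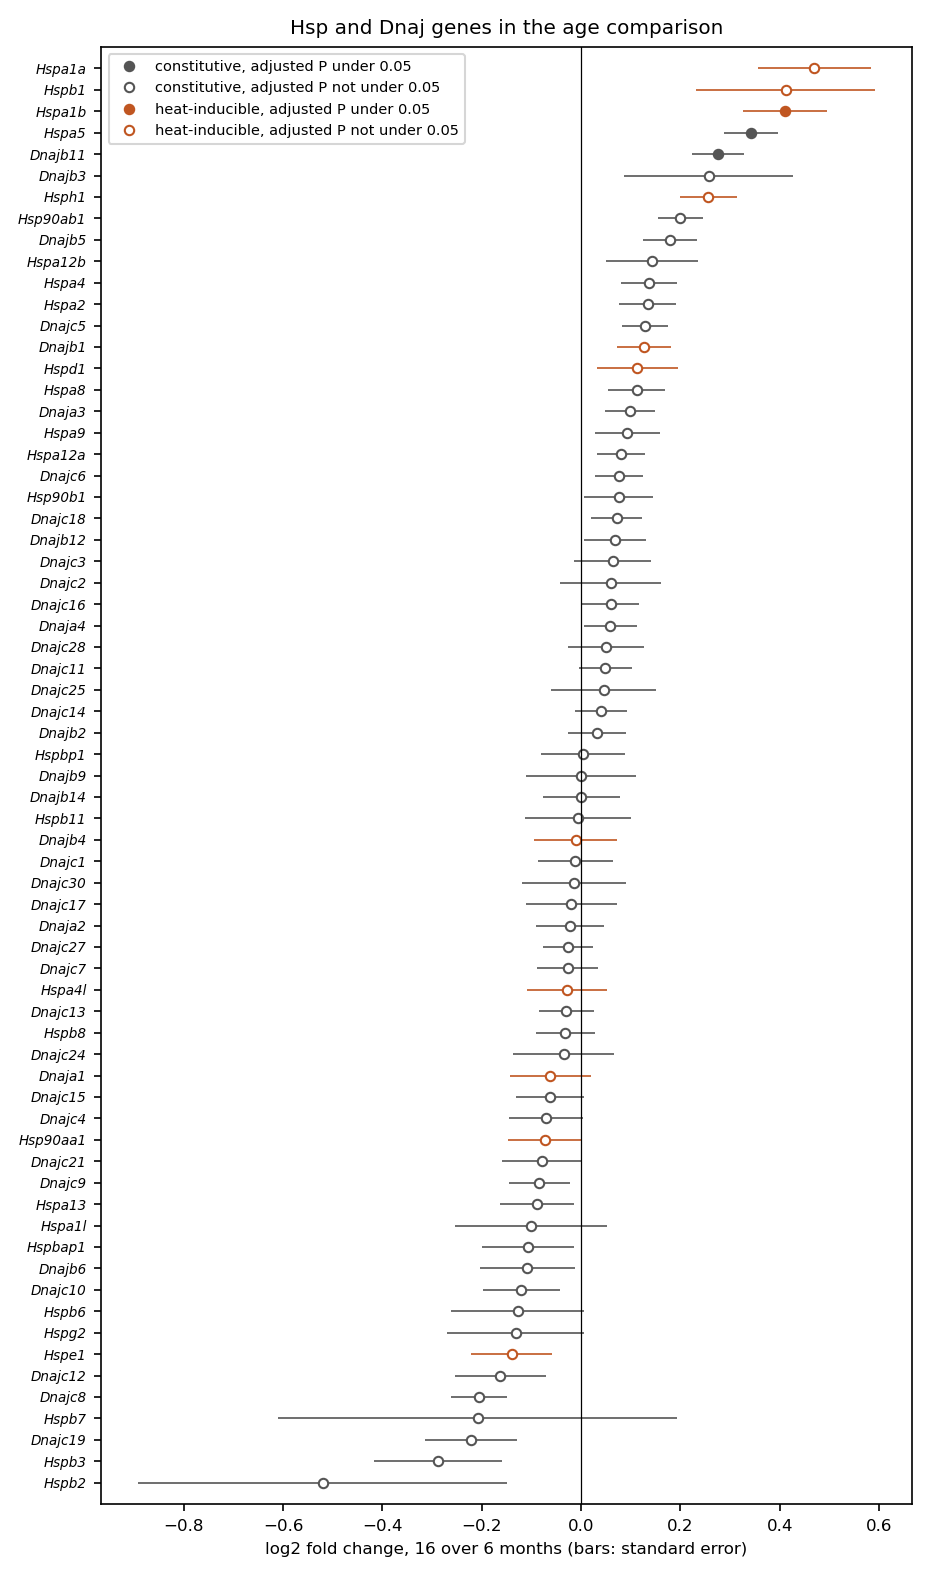
Log2 fold change of 16 over 6 months for the 67 tested members, ordered by size, with the standard error of the fit as bars (3 samples per age). Filled points mark the 3 called members (Hspa1b, Hspa5, Dnajb11), and the heat-inducible members spread from Hspa1a at 0.47 to Hspe1 at -0.14.

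These calls changed when single samples were left out, while the log2 fold changes of Hspa5, Dnajb11 and Hspa1b stayed between 0.24 and 0.46. Without replicate 1 of 16 months 8 members were called (5.73% of all tested genes), and without replicate 2 of 16 months 12 were called (12.7%), 7 higher and 5 lower, with Hspa5, Dnajb11 and Hspa1b among the higher ones both times. Without replicate 1, 2 or 3 of 6 months, or without replicate 3 of 16 months, edgeR called 0 members, with 10, 8, 11 and 9 members at an unadjusted P below 0.05, and the shares of all genes called were 0.318%, 0.328%, 0.277% and 0.335%. DESeq2's Wald test on all 6 samples called Hspa5, Dnajb11, Hspa1b, Hsp90ab1 and Hsph1.

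Replicates 1 and 2 of 16 months differed from each other along the GC content of the transcripts. Across genes, the deviation of a sample from the mean of its age correlated with GC content with r = 0.588 in replicate 1 and r = -0.582 in replicate 2 of 16 months, and with r between -0.130 and 0.160 in the other 4 samples. Among the members, the difference between these 2 replicates rose with GC content with r = 0.774 over 67 genes, which share the same 2 libraries. The 34 tested members with lower GC content were higher in replicate 2 in 30 cases, and the 33 with higher GC content were higher in replicate 1 in 25 cases. The median SD of log2 levels over the members was 0.054 at 6 months and 0.115 at 16 months, and it was 0.063 and 0.128 over all tested genes. When levels were adjusted by offsets for GC content and for the length of the merged exons in each sample, 12 members were called, 11 higher and 1 lower (14.2% of all tested genes). The part of this tilt in the fold changes of single members was not tested beyond these offsets.

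**Figure D2:**
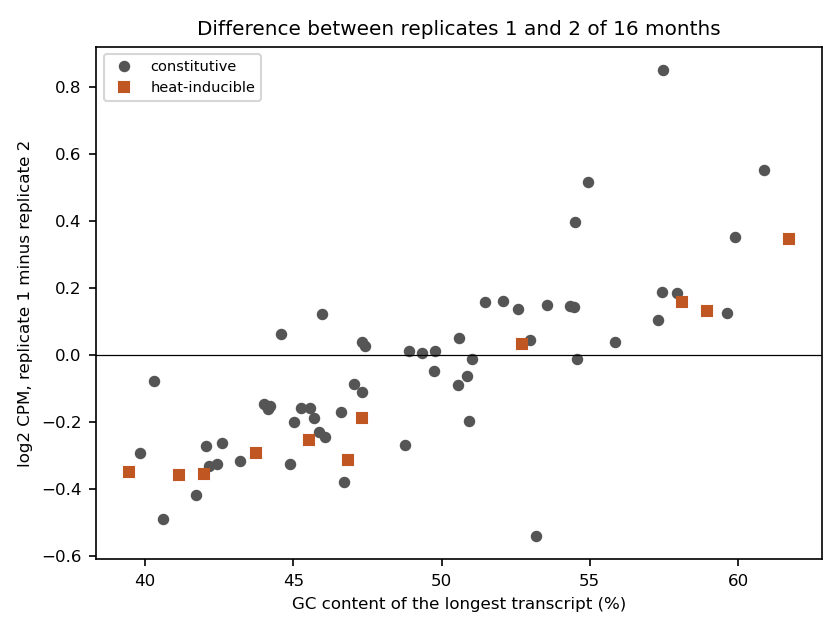
Difference in log2 CPM between replicates 1 and 2 of 16 months (vertical axis) against the GC content of the longest transcript in percent (horizontal axis) for the 67 tested members. Members below a GC content of about 47% lie mostly below 0 and members above it mostly above 0, in both classes.

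In the ER, Hspa5 and Dnajb11 were higher at 16 months, and so were 3 of 19 further ER genes of folding and quality control. Hspa5 encodes the central Hsp70 of the ER lumen, which holds folding clients and also keeps the sensors of the unfolded protein response silent. Its level was 408, 419.6 and 421 CPM at 6 months and 501, 559 and 522 CPM at 16 months, so that the lowest sample of 16 months lay above the highest of 6 months. It was 26.8% higher at 16 months (log2 fold change 0.34, SE 0.055, adjusted P = 0.0164), and the log2 fold change was between 0.30 and 0.38 when single samples were left out, with adjusted P from 0.000197 to 0.124. The gene lies on chromosome 2 (34771970 to 34777547, GRCm38, plus strand) and shares no long stretch with another transcript.

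Dnajb11 (ERdj3) is a soluble DnaJ protein of the ER lumen that delivers clients to Hspa5. It lies on chromosome 16 (22857845 to 22879634, plus strand). It was read at 55.1, 56.7, 57.2, 66.9, 71.2 and 66.6 CPM, again without overlap between the ages. The difference was 21.1% (log2 fold change 0.28, SE 0.053, adjusted P = 0.0313), and without single samples the log2 fold change was between 0.24 and 0.29 and the adjusted P between 0.00409 and 0.194.

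Hsp90b1 is the Hsp90 of the ER and folds integrins and Toll-like receptors. Unlike in Hspa5, its samples overlapped, with 419, 437, 435, 405, 488 and 466 CPM (log2 fold change 0.08, SE 0.069, adjusted P = 0.625). Replicate 1 of 16 months was its lowest and replicate 2 its highest value, and the transcript has a GC content of 42.1%. The log2 fold change was 0.15 without replicate 1 and 0.02 without replicate 2 of 16 months. With offsets for GC content and length the log2 fold change was 0.12 (adjusted P = 0.0109). The other ER members tested were Hspa13, Dnajb9, Dnajc1, Dnajc3 and Dnajc10, none of which was called, with log2 fold changes between -0.12 and 0.06.

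The promoters of Hspa5 and Hsp90b1 are shown because they hold the ER stress element that factors of the unfolded protein response bind. The element was searched as CCAAT and CCACG parted by 9 bases, on both strands, in 250 bases before and 50 bases after the start of each gene (RefSeq, GRCm38.p6). It was found in 37 of 27025 genes with a promoter (0.137%), and among the 60 members with a promoter in Hspa5, Hsp90b1 and Dnajc3. The 250 bases before the start are printed 5′ to 3′ along the gene, with the element in capitals, 1 copy in Hspa5 that ends 46 bases before the start and 2 copies in Hsp90b1.
Hspa5 (chr2:34771840-34772089, plus strand): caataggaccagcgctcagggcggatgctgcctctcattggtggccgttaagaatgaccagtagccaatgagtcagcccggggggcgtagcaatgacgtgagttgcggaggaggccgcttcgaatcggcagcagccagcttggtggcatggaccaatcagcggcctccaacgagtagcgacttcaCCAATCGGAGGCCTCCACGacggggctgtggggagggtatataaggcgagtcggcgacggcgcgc
Hsp90b1 (chr10:86705445-86705694, minus strand): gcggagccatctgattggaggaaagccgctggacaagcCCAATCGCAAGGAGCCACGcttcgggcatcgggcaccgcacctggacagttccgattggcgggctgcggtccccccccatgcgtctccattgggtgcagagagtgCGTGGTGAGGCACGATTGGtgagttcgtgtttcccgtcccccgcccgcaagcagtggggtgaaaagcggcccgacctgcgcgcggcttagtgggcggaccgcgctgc
A match describes these letters only. Of the 3 members with this element, Hspa5 was called, whereas Dnajc3 (log2 fold change 0.06, adjusted P = 0.719) and Hsp90b1 were not, and the called Dnajb11 was without a match in this window.

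Outside the Hsp and Dnaj families, 19 genes of ER folding and of the unfolded protein response had a median log2 fold change of 0.18. Called were Pdia4, Hyou1 and Calr, all higher. Pdia4, a disulfide isomerase, was read at 56.6, 55.4, 55.1, 68.7, 69.6 and 71.0 CPM (log2 fold change 0.32, adjusted P = 0.0126). Hyou1, the large Hsp70-like protein that exchanges the nucleotide of Hspa5, went from 114.7, 110.3 and 105.2 CPM to 146, 129.5 and 136 CPM (0.32, adjusted P = 0.0325). Calr (calreticulin), a lectin chaperone that binds calcium, was read at 348, 352, 347, 398, 415 and 423 CPM (0.24, adjusted P = 0.0417).

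An unadjusted P below 0.05 was reached by 13 of these 19 genes, all higher, where 8.57% of all tested genes were higher at this P. In 13 the samples of 16 months lay above those of 6 months, and in 1 (Ern1) they lay below. The shares over all tested genes were 12.2% and 11.5%. The 5 genes with a negative fold change, named here after their values were seen, had log2 fold changes between -0.07 and -0.01. They were Atf4 and Ddit3, which encode transcription factors of the stress response, Ern1 and Eif2ak3, which encode sensors of it, and Edem1. Edem1 is a gene of ER-associated degradation. Atf6, which encodes another sensor, and Xbp1, which encodes another factor, had positive fold changes. By edgeR these were 0.21 (adjusted P = 0.0828) and 0.12 (adjusted P = 0.278), also named after their values were seen. Leaving out replicate 1 or 2 of 16 months gave 10 calls in this list, where 5.73% and 12.7% of all tested genes were called. Leaving out any sample of 6 months or replicate 3 of 16 months gave 0 calls by edgeR, against 0.277% to 0.335% of all tested genes. In the latter fits 11 or 12 genes of the list had an unadjusted P below 0.05. The median log2 fold change was between 0.16 and 0.20 over the 6 fits that left out 1 sample. DESeq2's Wald test on all samples called 8 of the 19, and 513 of all 17120 tested genes. With offsets for GC content and length 13 of the 19 were called, all higher, against 14.2% of all tested genes in both directions.

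**Figure D3:**
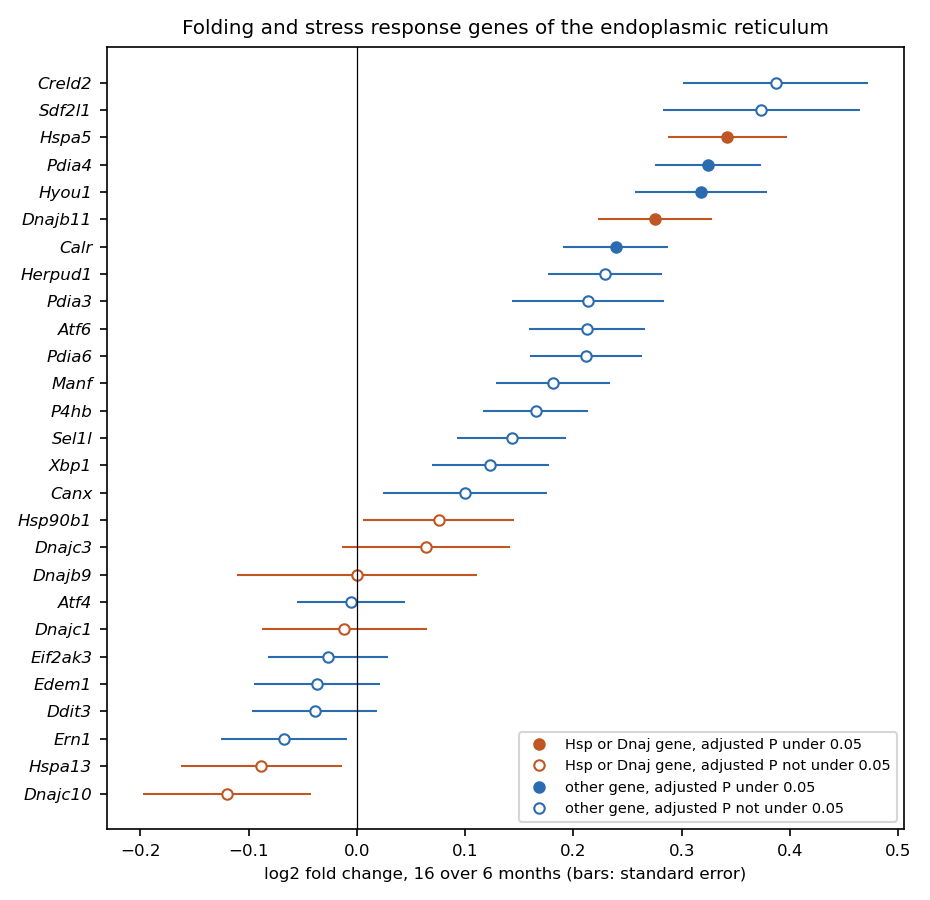
Log2 fold change of 16 over 6 months with its standard error for 8 ER members of the Hsp and Dnaj families and 19 other ER genes (3 samples per age). The called genes (filled points) are Hspa5, Pdia4, Hyou1, Dnajb11 and Calr, between 0.24 and 0.34, and the ER members Dnajc1, Hspa13 and Dnajc10 lie below 0.

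Among the heat-inducible members, Hspa1a, Hspa1b, Hspb1, Hsph1 and Dnajb1 lay higher in every sample of 16 months, and the other 6 overlapped between the ages. Hspa1b and its neighbour Hspa1a encode nearly identical Hsp70 proteins that are hardly made without stress. Hspa1b (chromosome 17, 34956436 to 34959238, minus strand) was read at 6.17, 6.67, 5.84, 8.63, 7.72 and 8.37 CPM, from 200 to 289 counts per sample. It was 33.0% higher at 16 months (log2 fold change 0.41, SE 0.085, adjusted P = 0.0436), with a log2 fold change from 0.37 to 0.46 and adjusted P from 0.00998 to 0.252 when single samples were left out, and an adjusted P of 0.0510 with upper quartile normalization. Hspa1a (chromosome 17, 34969190 to 34972156, minus strand) was read at 3.60, 3.13, 3.79, 4.83, 4.40 and 5.45 CPM and did not pass (0.47, SE 0.11, adjusted P = 0.0766).

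Both levels are uncertain, because 78.5% of the Hspa1b and 75.7% of the Hspa1a transcript are shared with the other gene or with the overlapping transcript Gm20481 at 97% identity or more over at least 100 bases. Reads that align equally well to more than 1 place were not counted. How many reads of these genes were lost in this way was not tested.

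The promoters of Hspa1b, Hspa1a and Hsph1 show the heat shock element, which HSF1 binds. It was searched as GAANNTTC or TTCNNGAA, each of which reads the same on both strands, in the same windows. The 250 bases before the start are printed 5′ to 3′ along the gene, with the element in capitals. Those of Hspa1b and Hspa1a were identical at 247 of 250 aligned positions (98.8%).
Hspa1b (chr17:34959239-34959488, minus strand): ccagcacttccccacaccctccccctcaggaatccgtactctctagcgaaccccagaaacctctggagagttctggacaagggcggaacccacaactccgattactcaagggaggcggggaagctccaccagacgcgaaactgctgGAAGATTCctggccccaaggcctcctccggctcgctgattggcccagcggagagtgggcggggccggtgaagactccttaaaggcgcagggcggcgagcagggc
Hspa1a (chr17:34972157-34972406, minus strand): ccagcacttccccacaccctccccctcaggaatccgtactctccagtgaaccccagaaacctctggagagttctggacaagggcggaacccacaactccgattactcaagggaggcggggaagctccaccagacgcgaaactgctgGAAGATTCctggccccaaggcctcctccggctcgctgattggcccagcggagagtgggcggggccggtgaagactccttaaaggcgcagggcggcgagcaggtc
Hsph1 (chr5:149636337-149636586, minus strand): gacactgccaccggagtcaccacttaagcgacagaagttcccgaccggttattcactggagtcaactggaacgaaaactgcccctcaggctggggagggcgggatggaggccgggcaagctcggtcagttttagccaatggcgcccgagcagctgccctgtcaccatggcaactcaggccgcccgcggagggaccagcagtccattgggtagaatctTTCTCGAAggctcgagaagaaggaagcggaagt
The element was found in 8 of the 10 heat-inducible members with a promoter (80%), namely Dnaja1, Dnajb4, Hspa1a, Hspa1b, Hspb1, Hspd1, Hspe1 and Hsph1. It was found in 8 of 50 constitutive members (16%) and in 17.0% of all genes with a promoter. The heat-inducible members were chosen as known targets of HSF1, so these shares do not test the class. Hspa1a and Hspa1b have nearly identical promoters, and Hspd1 and Hspe1 share a promoter region, so that the 8 matches are not independent. A stretch of 3 alternating units, which contains this element, was found in Hspd1, Hspe1, Hsph1 and Dnajb6 and in 0.662% of all genes. A gene was counted where any of its listed promoters matched. Hsph1 has 2 listed promoters, and its stretch of 3 units is not within the bases printed above.

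Hsph1 (Hsp105), an Hsp110 protein and nucleotide exchange factor of Hsp70, was the most abundant heat-inducible member by counts. It lies on chromosome 5 (149614287 to 149636376, minus strand) and shares no long stretch with another transcript. Its level was 413, 432, 416, 469, 534 and 503 CPM, with all samples of 16 months above those of 6 months (log2 fold change 0.26, SE 0.058, adjusted P = 0.0638). DESeq2's Wald test gave an adjusted P of 0.00924, and the offsets for GC content and length gave 0.000592.

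Hspb1 (Hsp27 in man, Hsp25 in mouse), a small heat shock protein that keeps unfolded proteins from clumping, was read at 1.41, 0.967, 1.36, 1.96, 1.53 and 1.58 CPM, from 29 to 66 counts per sample. The ages lay apart, but the difference did not pass (log2 fold change 0.41, SE 0.18, adjusted P = 0.276), and 72.6% of the transcript is shared with Hsp25-ps1 or Gm9817. Dnajb1 (Hsp40), the inducible DnaJ partner of cytosolic Hsp70, was read at 69.9, 67.9, 74.5, 77.1, 75.4 and 79.3 CPM (0.13, SE 0.055, adjusted P = 0.274). Its samples lay apart as well, by less than the spread within an age.

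The other 6 heat-inducible members did not differ detectably between the ages. Hsp90aa1, the inducible cytosolic Hsp90, was read at 226, 247, 240.5, 202, 247 and 229 CPM (log2 fold change -0.07, SE 0.074, adjusted P = 0.666). Hspa4l, an Hsp110 protein, was read at 341, 358, 355, 306, 390.2 and 337 CPM (-0.03, SE 0.080, adjusted P = 0.890). In both, replicate 1 of 16 months was the lowest and replicate 2 the highest of the 6 samples, and their transcripts have a GC content of 43.7% and 39.5%.

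Dnaja1 and Dnajb4 are DnaJ partners of cytosolic Hsp70. Their log2 fold changes were -0.06 (SE 0.082, adjusted P = 0.746) and -0.01 (SE 0.083, adjusted P = 0.962). Hspd1 (Hsp60) and Hspe1 (Hsp10) form the folding chamber of mitochondria and are transcribed in opposite directions from a shared promoter region. Hspd1 was read at 68.6, 77.8, 74.8, 71.4, 88.7 and 79.1 CPM (0.11, SE 0.082, adjusted P = 0.518) and Hspe1 at 25.6, 28.7, 26.0, 22.7, 27.1 and 23.0 CPM (-0.14, SE 0.081, adjusted P = 0.414). Of the Hsp90aa1 transcript 68.7% and of the Hspd1 transcript 71.1% are shared with processed copies.

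**Figure D4:**
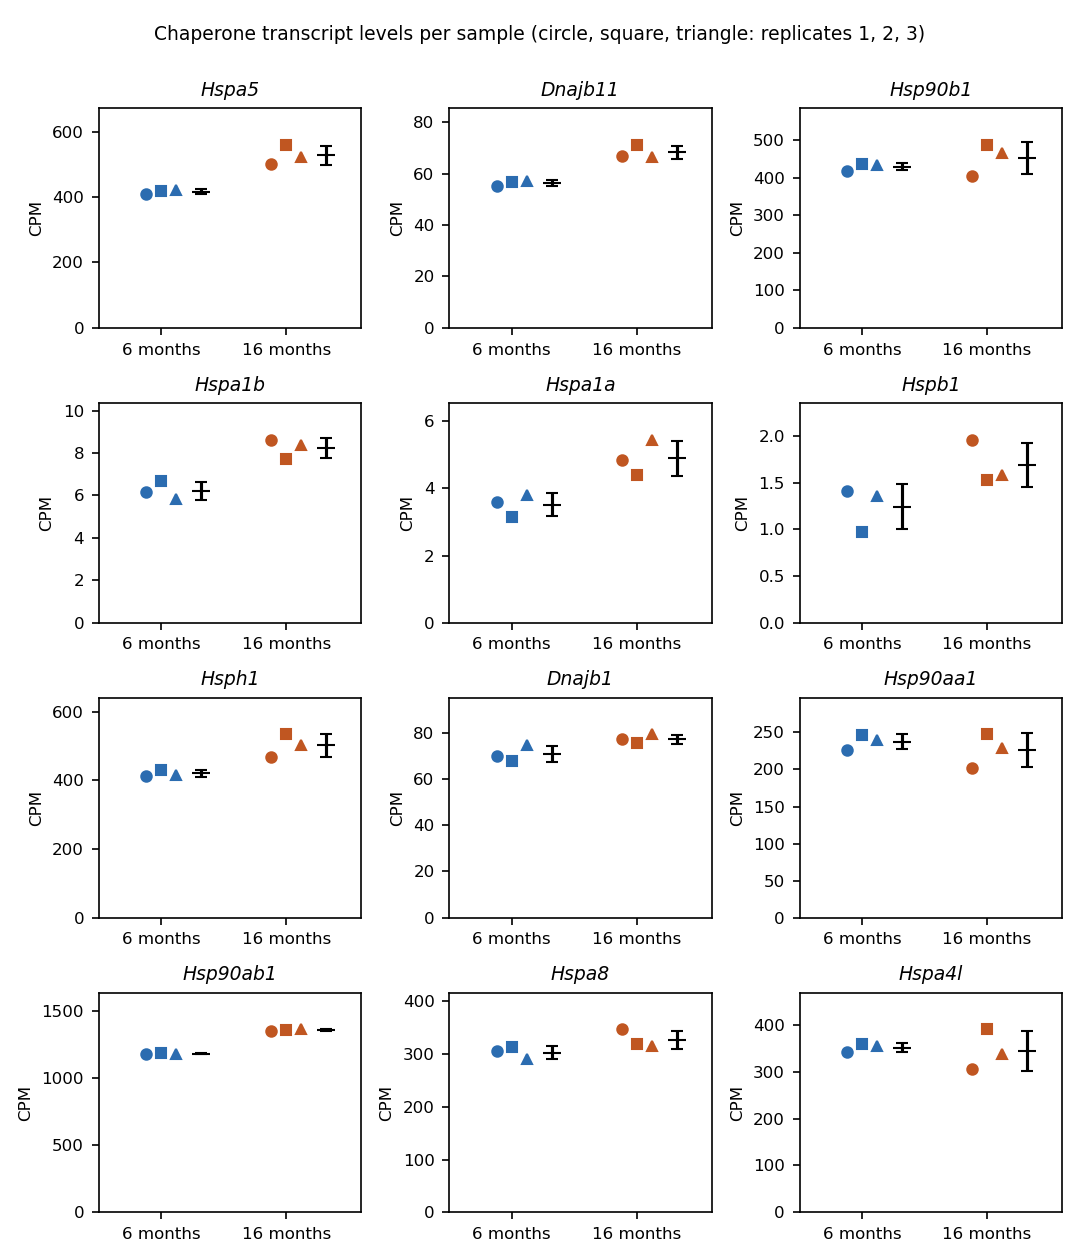
CPM (vertical axes, from 0) of 12 members in each sample of 6 months (blue) and 16 months (orange), with circles, squares and triangles for replicates 1, 2 and 3 and black bars for the mean and SD of each age. Hspa5, Dnajb11, Hspa1b, Hspa1a, Hspb1, Hsph1, Dnajb1, Hsp90ab1 and Hspa8 show no overlap between the ages, while Hsp90b1, Hsp90aa1 and Hspa4l overlap, with replicate 1 lowest and replicate 2 highest at 16 months.

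Of the constitutive cytosolic chaperones, Hsp90ab1, Hspa8, Hspa4 and Hspa2 had higher mean levels at 16 months without passing the test. Hsp90ab1, the constitutive Hsp90 of the cytosol, varied little within each age, with 1175, 1182, 1179, 1345, 1355 and 1361 CPM. The difference of 14.9% did not pass (log2 fold change 0.20, SE 0.045, adjusted P = 0.0603), with an adjusted P of 0.00465 by DESeq2's Wald test and of 0.000684 with the offsets. Hspa8, the constitutive Hsp70 that also strips clathrin from vesicles, was read at 305, 313, 290.0, 347, 319 and 315 CPM (0.11, SE 0.057, adjusted P = 0.349), and 64.8% of its transcript is shared with copies.

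Hspa4, a constitutive Hsp110 protein, was read at 324, 332, 334, 342, 385 and 362 CPM (log2 fold change 0.14, SE 0.056, adjusted P = 0.242). Hspa2, an Hsp70 best known from the testis, was read at 38.7, 40.1, 38.5, 45.0, 40.6 and 43.1 CPM (0.13, SE 0.058, adjusted P = 0.272). The samples of both ages lay apart in each of these genes. Over the families, 8 of 10 tested Hsp70 genes had a positive fold change and 2 were called (Hspa5 and Hspa1b), while 0 of 3 Hsp90 genes and 0 of 3 Hsp110 genes were called by edgeR, with 1 and 2 at an unadjusted P below 0.05.

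Small heat shock proteins hold unfolded proteins without using ATP. Of the 6 tested here (Hspb1, Hspb2, Hspb3, Hspb6, Hspb7 and Hspb8), 5 had a negative fold change, and Hspb1 described above had a positive one. The median over these 6 genes was -0.17. Hspb2 (9 to 25 counts per sample) and Hspb7 (5 to 20) were read at low counts. Hspb11 was not counted with these genes (log2 fold change -0.0053, adjusted P = 0.987 by edgeR). Hspb3, best known from muscle, was read at 2.16, 1.97, 2.12, 1.75, 1.56 and 1.81 CPM, lower in all 3 samples of 16 months (log2 fold change -0.29, SE 0.13, adjusted P = 0.283). None of the 6 was called by edgeR, with 2 at an unadjusted P below 0.05, of which Hspb1 was higher and Hspb3 lower. Cryab (alpha-B crystallin), a small heat shock protein outside the naming rule that is abundant in glia, was read at 94.3, 90.7, 98.9, 96.6, 92.0 and 98.3 CPM (0.01, adjusted P = 0.918).

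Mitochondrial members were not called, with 0 of 8 by edgeR and 1 at an unadjusted P below 0.05. Hspa9 (mortalin), the Hsp70 of the mitochondrial matrix, was read at 219.6, 237, 230.0, 226, 265 and 242 CPM (log2 fold change 0.09, SE 0.066, adjusted P = 0.507). Dnajc19, a subunit of the import motor of the inner membrane, was read at 16.0, 16.8, 14.95, 14.2, 14.96 and 11.8 CPM (-0.22, SE 0.093, adjusted P = 0.256), with overlap between the ages. The 11 other genes of mitochondrial protein quality control held 0 calls and 1 gene at an unadjusted P below 0.05, with a median of -0.0048.

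Among the DnaJ genes, 1 of 10 tested Dnajb genes (Dnajb11), 0 of 25 Dnajc genes and 0 of 4 Dnaja genes were called by edgeR, with 3, 3 and 0 genes at an unadjusted P below 0.05. Dnajc5 (cysteine string protein), which guards SNARE proteins at the synaptic vesicle, was read at 401, 400.0, 396, 439.8, 436 and 433 CPM. The ages lay apart (log2 fold change 0.13, SE 0.046, adjusted P = 0.188), and with the offsets the adjusted P was 0.0201. Dnajc6 (auxilin), the neuronal partner of Hspa8 in uncoating clathrin vesicles, was read at 383, 382, 382, 395, 419 and 395 CPM (0.08, SE 0.049, adjusted P = 0.460).

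Dnajb5, a DnaJ protein of the cytosol, was read at 189, 187, 194, 223, 202 and 219 CPM (log2 fold change 0.18, SE 0.055, adjusted P = 0.139). In the opposite direction, Dnajc8, a DnaJ protein tied to the splicing machinery, was read at 84.0, 86.3, 87.1, 70.9, 78.7 and 73.7 CPM (-0.21, SE 0.056, adjusted P = 0.100). Its samples did not overlap between the ages, and it was the 1 member called lower with the offsets (-0.17, adjusted P = 0.00393). Dnaja2, a constitutive partner of cytosolic Hsp70, was read at 246, 257, 253, 226, 271 and 248 CPM (-0.02, SE 0.068, adjusted P = 0.899). The remaining 41 tested members had log2 fold changes between -0.52 and 0.26 and adjusted P-values of 0.341 or higher.

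Levels were also compared per kilobase of merged exons, and scaled to 1000000 in each sample. The exons of all annotated transcripts of a gene count toward this length, which lowers the level of genes with many exons outside their main transcript. Hsp90ab1 had the highest level of all members, with 1832 ± 2.36 at 6 months and 2072 ± 29.1 at 16 months (SD, n = 3). On this scale Hspa5 (459 ± 6.47 and 573 ± 37.6) and Hsp90b1 (497 ± 9.71 and 516 ± 53.8) followed, and at 16 months these 2 neighbours lay within their spread of each other. Dnaja2 (395 ± 6.65 and 383 ± 38.6) and Hspa8 (328 ± 12.5 and 349 ± 16.0) were next and also lay within their spread of each other at 16 months. Hspa5 was below Hsp90b1 at 6 months and above it at 16 months. Of the 74 members 17 share over 20% of their transcript with another gene, Hspa8 and Hsp90aa1 among them, and reads lost through this would lower their level, which was not tested.

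**Figure D5:**
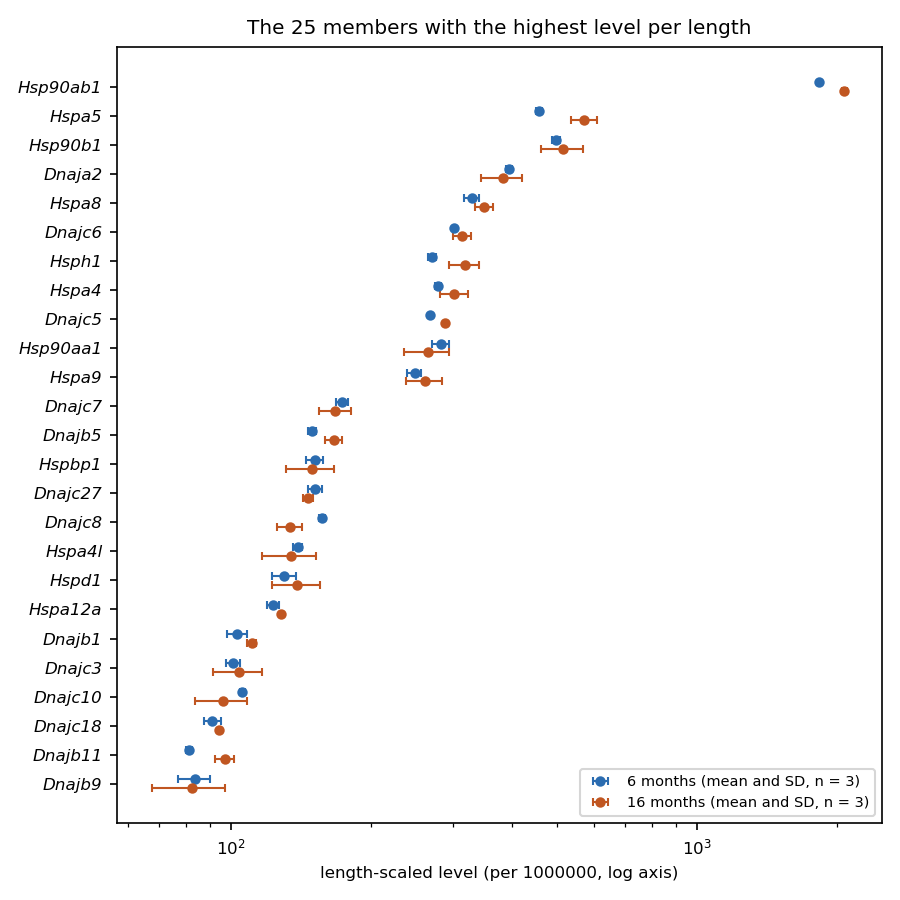
Length-scaled level (per 1000000, log axis) of the 25 members with the highest level, as mean and SD of the 3 samples of 6 months (blue) and 16 months (orange). Hsp90ab1 stands alone at the top with 1832 and 2072, and the ER chaperones Hspa5 and Hsp90b1 follow.

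The 7 members with too few counts for the test were Dnajb13, Dnajb7, Dnajb8, Dnajc22, Dnajc5b, Dnajc5g and Hspb9, none of which exceeded 0.512 CPM in a sample. Dnajc5b and Dnajc5g, relatives of Dnajc5 known from the testis, were at or near 0, and Dnajc5g had 0 counts in every sample. A count of 0 allows a level of up to 0.0645 to 0.101 CPM in a sample (3 counts), which covers counting error only.

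Among regulators and partners of the chaperones few genes were called. The list of heat shock factors and the factor binding protein Hsbp1 (4 tested genes) held 0 calls by edgeR and 0 genes at an unadjusted P below 0.05, and Hsf1 was read at 35.8, 36.3, 35.9, 42.8, 32.4 and 36.9 CPM (log2 fold change 0.05, adjusted P = 0.803). Of 16 cochaperones of Hsp90 only Fkbp5, which slows the glucocorticoid receptor and is itself a target of it, was called, with 38.3, 38.0, 37.6, 52.7, 54.3 and 51.1 CPM (0.47, SE 0.052, adjusted P = 0.0024). It was also called in each of the 6 fits that left out 1 sample. Of 12 cochaperones of Hsp70 only Hyou1 was called. The chaperonin TRiC (8 genes) and prefoldin (6 genes), which fold actin and tubulin, held 0 calls by edgeR with 0 and 2 genes at an unadjusted P below 0.05, and the 6 prefoldin genes had negative fold changes (median -0.14). With the offsets for GC content and length the prefoldin median was -0.06 and 1 of the 6 fold changes was positive. DESeq2's Wald test called Pfdn5 of prefoldin, named here after its values were seen, lower with an adjusted P of 0.0142.

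Other stress responses were read beside the chaperones. Of 7 genes that glucocorticoids raise, 5 were called higher (Fkbp5, Sgk1, Plin4, Tsc22d3 and Cdkn1a), with log2 fold changes from 0.27 to 1.11. Among all tested genes 0.783% were called higher. The list was chosen with earlier results of these data known, so its count describes these genes and does not test a response. The 11 immediate early genes held 0 calls by edgeR and 5 genes at an unadjusted P below 0.05 (4 higher, 1 lower), with a median of 0.08. DESeq2's Wald test called Egr1, named here after its values were seen, higher with an adjusted P of 0.0264. With the offsets for GC content and length 5 of the 11 were called higher and 1 lower, against 14.2% of all tested genes. The cold-inducible Cirbp (-0.11, adjusted P = 0.346) and Rbm3 (-0.07, adjusted P = 0.642) were not called. The part of these responses in the levels of the chaperones was not tested.

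Some markers of other tissue moved with age beside the chaperones. Of 8 tested markers of thalamus and 8 of dentate gyrus 4 each were called higher, against 0.783% of all tested genes. The marker lists were chosen with earlier results of these data known, so their counts do not test tissue content. Those of thalamus were Shox2, Prkcd, Tcf7l2 and Plekhg1, with log2 fold changes of 4.06, 0.91, 0.44 and 0.32. Shox2 had a mean of 0.105 CPM at 6 months and 1.74 CPM at 16 months. Those of dentate gyrus were Dsp, Lct, C1ql2 and Calb2, with 1.26, 1.12, 0.86 and 0.37. Summed levels of the thalamus list were 122 to 125 CPM at 6 months and 147 to 162 CPM at 16 months. Those of the dentate gyrus list were 186 to 191 and 207 to 221 CPM. The 5 blood markers were all higher at an unadjusted P below 0.05, with summed levels of 27.3 to 30.8 CPM and 44.9 to 50.3 CPM, and 2 were called. Of 9 tested markers of choroid plexus and ependyma, Ttr was called higher (17.8 against 8.95 CPM) and Ccdc153 lower. Markers of endothelial cells (summed levels 198 to 202 and 191 to 198 CPM) and of mural cells (171 to 182 and 166.5 to 168 CPM) had negative medians, with Kdr called lower. Of the precursors of oligodendrocytes all 8 markers had positive fold changes, with Gpr17 and Neu4 called. Gfap of astrocytes, Aif1 of microglia and Pvalb of inhibitory neurons were called lower, and Cldn11 and Mal of oligodendrocytes and Pde10a and Penk of striatum higher. These genes do not stand for their lists. Fold changes were positive in 5 of 10 astrocyte, 3 of 10 microglia and 7 of 10 inhibitory neuron markers. They were positive in 6 of 10 oligodendrocyte and 7 of 8 striatum markers. Of 11 markers of excitatory neurons 0 were called by edgeR, with 3 at an unadjusted P below 0.05. No tested marker was at 0, and the part of cell and region content in the chaperone levels was not tested.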

How the data were processed

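Polyadenylated RNA of 6 cortical hemispheres was sequenced in paired ends. Per the paper's methods, the authors trimmed reads with fastq-mcf, aligned them with STAR to mm10 and counted them with HTSeq on Ensembl genes. The submitters' processing notes instead list CASAVA 1.8.2, STAR 2.3.0e and featureCounts 1.5.0-p1. The strand setting and Ensembl release are not given in the sources used here, so antisense overlaps cannot be separated. The deposited values are raw counts per gene. HTSeq's summary lines were kept out of totals and tests. For every 100 counted reads, between 43.4 and 51.4 alignments were not unique and were not counted.

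Of 38355 genes, 36602 matched GENCODE M21 (GRCm38) by identifier. Hspa14 was not matched and is not analysed here. Counts were fitted with edgeR 4.0.16 (R 4.3.3): TMM, filterByExpr, quasi-likelihood test on age alone, Benjamini-Hochberg adjustment at 0.05. Replicates are different brains. Total counts ranged from 29797253 to 46519280, and the biological coefficient of variation was 6.40%. Log2 levels used a prior count of 2. Shared transcript stretches were searched with blastn 2.17.0. Promoters came from RefSeq (60 of 74 members matched). Tests were checked on simulated counts.

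Named are members called or with an unadjusted P below 0.05, all heat-inducible members, the main chaperone of each compartment, Dnajc5, Dnajc6, the 5 highest per length, and of other lists the called genes, Hsf1, Cryab, Cirbp and Rbm3. Members and lists were chosen with earlier results of these data known. Alternatives were DESeq2 size factors, upper quartile, 2 other count filters, DESeq2 1.42.0, a replicate block, offsets for GC content and length (medians over 20 bins), single samples left out, and narrower or wider lists. A run without members that share over 20% of their transcript was added after seeing the data.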

Additional observations from a re-analysis of the deposited data

How the results depend on the processing

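Against 286 genes (134 higher, 152 lower) and 3 members called, no filter on low counts gave 648 genes and 6 members, DESeq2's Wald test 513 and 5, the offsets for GC content and length 2425 and 12, and the offsets with the replicate block 3321 and 16. Leaving out single samples gave 48 to 2211 genes and 0 to 12 members. DESeq2 size factors, upper quartile normalization, a minimum of 10 counts and the member rule without Hspg2, Hspbap1 and Hspb11 gave 2 or 3 members. The causes were not tested.

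A block on the replicate number gave 783 genes and 7 members (6 higher, 1 lower). Samples share only this number across the ages. Deviations of same-numbered samples correlated with r = 0.180, 0.0958 and 0.0351, and 5 of 6 samples correlated best with their own number. Their correlations with GC content also had the same sign at 6 and 16 months. These were 0.160 and 0.588 for replicate 1, -0.130 and -0.582 for replicate 2, and -0.0230 and -0.0545 for replicate 3. The part of GC content in the correlations between the ages was not tested.

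The median log2 fold change of the heat-inducible members was 0.33 with the narrow list of 6 genes. This list holds the 5 heat-inducible members that lay apart upward and Hsp90aa1. Against 0.11, the median was between 0.03 and 0.13 when single samples were left out and 0.11 with the wide list. It was 0.06 without members that share over 20% of their transcript, which left 4 genes. That of the constitutive members was between -0.02 and 0.03 when single samples were left out.

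Signs of small fold changes turned for 5 of the named members. With the offsets, alone and with the replicate block, Dnaja2 had 0.0327 and 0.0328, Dnajb4 0.0231 and 0.0211, and Hspa4l 0.0566 and 0.0565. When single samples were left out, Dnaja1 ranged from -0.166 to 0.0154, Dnaja2 from -0.0904 to 0.0413, Dnajb4 from -0.105 to 0.0729, Hsp90aa1 from -0.142 to 0.00189 and Hspa4l from -0.128 to 0.0494. Depth limits Hspb1, Hspb3, Hspa1a and Hspa1b, which had between 29 and 289 counts in a sample.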
